A study of Mus musculus with 2 samples.

Results

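The genes described here are 38 genes of fatty acid oxidation and of the liver programme controlled by the nuclear receptor PPARA, taken by name from a deposited table of 21936 mouse genes. All 38 were found there. By site of action they comprised 17 genes of mitochondrial oxidation, 6 of peroxisomal oxidation, 12 of acyl-CoA handling and 3 further PPARA targets. The knockout library came from the liver of hnRNPK flox/flox Alb-Cre mice, which carry floxed Hnrnpk alleles and a Cre recombinase driven by the albumin promoter, active in hepatocytes. The control library came from the liver of hnRNPK flox/flox mice, so both groups carry the floxed alleles and differ by Cre. The labels do not state in which liver cells the alleles were recombined. The labels used here state neither age, sex, feeding state and time of collection nor how many mice were sampled.

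Fatty acids that enter a hepatocyte are bound by a carrier protein, activated to acyl-CoA esters, and passed into mitochondria as carnitine esters. There they are shortened in repeated cycles of dehydrogenation, hydration, a further dehydrogenation and thiolysis. Very long and branched chains begin this breakdown in peroxisomes, and in fasting the liver turns the acetyl-CoA into ketone bodies for other tissues. PPARA is activated by fatty acids, pairs with a retinoid X receptor, and raises the transcription of many of these genes at response elements made of direct repeats of a hexamer with a spacer of a single base. This makes the gene group a common readout of fasting and of lipid load in the liver.

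There was 1 library per genotype, with 12176239 counted reads in the knockout and 12428975 in the control. No test could be made, and every 95% interval below covers counting error only, not differences between mice, dissections or library preparations. Hnrnpk itself had 1411 reads in the knockout library and 2559 in the control library, or FPKM 17.9 and 31.8 (reads scaled to gene length and library total). The hepatocyte marker Alb stood at FPKM 31832 in the knockout and 32028 in the control. Log2 ratios of knockout over control for the 9 evaluated hepatocyte markers, Alb included, ran from -0.28 to 0.53, with a median of 0.002. Under the smaller rule given below, 2 of the 9 (22.2%) were higher and 0 lower, against 12.5% and 15.6% of all evaluated genes. Of 7 evaluated bile duct markers, 5 (71.4%) exceeded 2-fold on the higher side, against 2.48% of all evaluated genes. The list's summed level was FPKM 74.9 in the knockout against 16.5 in the control.

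Ppara, the receptor that gives the gene group its common link, was low in the knockout library. It had 777 reads in the knockout and 1995 in the control, at FPKM 16.6 and 41.8. As a ratio of knockout over control this was 0.401, with a 95% interval of 0.368 to 0.435 and a log2 value of -1.32. Of 9563 evaluated genes, those that reached FPKM 1 and 20 reads in the higher library, only 37 had a lower log2 ratio. In bulk liver RNA, fewer cells of a type and less RNA per cell cannot be told apart.

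The 38 genes did not share that difference as a group. Of the 37 that could be evaluated, 0 were at least 2-fold higher and 2 at least 2-fold lower, Acsl1 and Etfb. Among all evaluated genes 2.48% were past that rule in the higher direction and 1.11% in the lower. A smaller rule, read on the log2 ratio, required the lower library to stand at 0.8 or less of the higher one. It also required the counting interval to be clear of 1. Under this smaller rule 6 genes were higher and 6 lower, or 16.2% each way. The same rule took 12.5% of all evaluated genes as higher and 15.6% as lower, which is close to the share seen in the group. The median log2 ratio of the 37 was 0.02, against -0.03 over all evaluated genes, and 16 of the 37 (43.2%) were below 0 where 54% of all evaluated genes were. Summed over the 38 genes, the level was FPKM 6143 in the knockout and 6376 in the control. Fabp1 alone gave FPKM 3658 and 3740 of these sums.

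**Figure D1:**
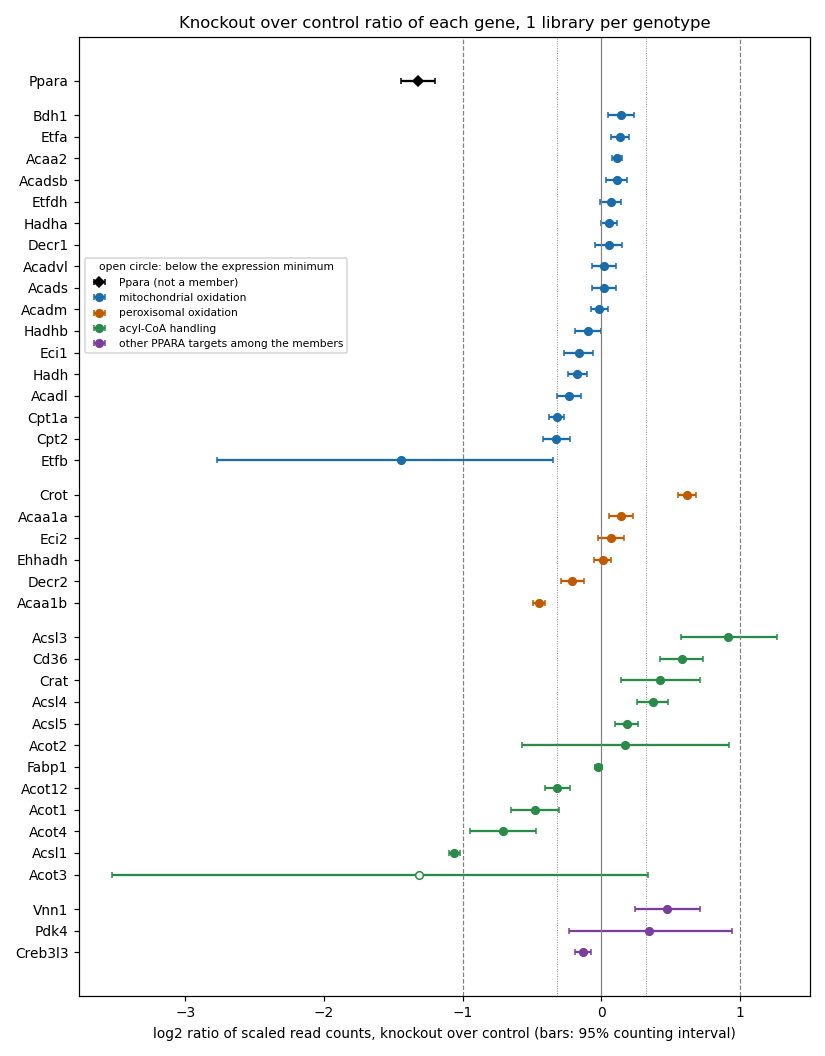
Log2 ratio of scaled read counts, knockout over control, on the horizontal axis for Ppara and each of the 38 genes, grouped by class; points are ratios, bars are 95% counting intervals, dashed lines mark 2-fold, dotted lines mark the smaller rule, and an open circle marks the gene below the expression minimum. Most mitochondrial genes lie near 0, while Acsl1 at -1.06 is the well-counted gene nearest to Ppara at -1.32.

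Mitochondrial oxidation genes were nearly level between the libraries. All 17 were evaluated, 11 of them had a log2 ratio within 0.15 of 0, and the median was 0.02. Under the smaller rule 0 were higher and 2 lower, Cpt2 and Etfb. The lower share was 11.8%, against 15.6% of all evaluated genes. Summed over the 17 genes, the level was FPKM 1548 in the knockout and 1541 in the control. Acaa2 alone gave FPKM 633 and 590 of these sums.

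Both carnitine palmitoyltransferase genes of the group were lower in the knockout library. Their log2 ratios stood at percentile 17.8 (Cpt1a) and 17.6 (Cpt2) of all evaluated genes. Cpt1a, the outer membrane carnitine palmitoyltransferase that limits the rate of mitochondrial oxidation, had 4953 reads in the knockout and 6368 in the control, at FPKM 53.2 and 67.0. Its ratio was 0.799995 (0.771 to 0.830), which by itself falls just within the 0.8 of the smaller rule. The rule was read on the log2 ratio, for which a small constant was added to the scaled counts. That value, -0.32, stopped just short of the line, so Cpt1a was not counted as past it. Cpt2, the inner membrane partner that reforms the acyl-CoA, had 1502 reads in the knockout and 1935 in the control, a ratio of 0.798 (0.746 to 0.854) just past the line. The intervals of both transferases exclude 1. After a length correction, which subtracts the running median of genes of similar length, the log2 ratio was -0.20 for Cpt1a and -0.38 for Cpt2.

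The acyl-CoA dehydrogenases, which open each cycle, differ in the chain length they take. Acadl, for long chains, had 2001 reads in the knockout and 2413 in the control, a ratio of 0.853 (0.803 to 0.905). Acadm, for medium chains, had 4188 and 4353 reads in knockout and control, a ratio of 0.990 (0.948 to 1.03). Acads, for short chains, had 2209 reads in the knockout and 2245 in the control, and Acadvl, for very long chains, had 2157 in the knockout and 2188 in the control. The intervals of Acadm, Acads and Acadvl hold 1, so at this depth no difference was detectable for them. Acadsb, for short branched chains, stood at a ratio of 1.08 (1.02 to 1.14). Exons of Dvl2, on the opposite strand, cover 42.9% of the exonic bases of Acadvl, and with no strand setting stated, reads there could come from either gene.

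The later steps of the cycle stayed within the smaller rule as well. Hadha and Hadhb, the subunits of the trifunctional protein, had ratios of 1.04 (0.998 to 1.08) and 0.935 (0.877 to 0.996). The direction of Hadhb did not hold, with log2 ratios of 0.02 after the length correction and 0.01 after the same correction for GC content, against -0.10 without them. Hadh, the short chain hydroxyacyl-CoA dehydrogenase, stood at 0.887 (0.846 to 0.929). Acaa2, the thiolase that closes the cycle, had the highest level of the class, FPKM 633 in the knockout and 590 in the control, at a ratio of 1.08 (1.05 to 1.11), and its log2 ratio was -0.01 after the length correction. The enzymes needed for unsaturated chains went apart by a small amount, with the isomerase gene Eci1 at 0.893 (0.829 to 0.962) and the reductase gene Decr1 at 1.04 (0.971 to 1.11). Bdh1, which makes the ketone body beta-hydroxybutyrate, was the highest of the class at 1.10 (1.04 to 1.18).

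Electrons from the dehydrogenases pass through the electron transfer flavoprotein, a dimer of the Etfa and Etfb products, to the dehydrogenase encoded by Etfdh. Etfa had 3937 reads in the knockout and 3688 in the control, a ratio of 1.10 (1.05 to 1.15), and Etfdh stood at 1.05 (0.994 to 1.10). Etfb had only 9 reads in the knockout and 26 in the control, a ratio of 0.356 with a wide interval of 0.147 to 0.784. In level, Etfb was at FPKM 0.635 in the knockout and 1.80 in the control, where Etfa was at 176 and 162. Although the proteins form a pair, the Etfa level was 277 times the Etfb level in the knockout and 89.98 times in the control. In the GENCODE M21 annotation, exons of other genes cover 58.2% of the exonic bases of Etfb (mm10 chromosome 7, 43444083 to 43457800, plus strand), mainly those of Gm45233 on the same strand, which was not analysed here. The part of this overlap in the low Etfb count was not tested.

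**Figure D2:**
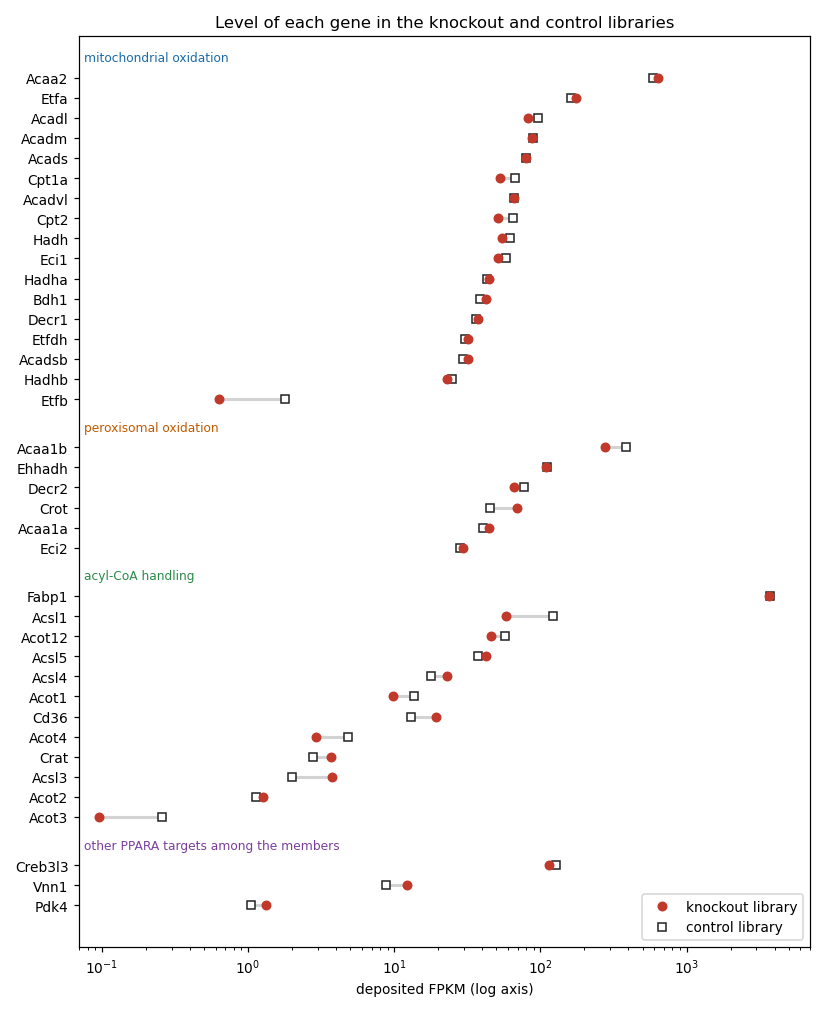
Deposited FPKM on a log axis for each of the 38 genes, with the knockout library as filled circles and the control library as open squares, ordered within each class by control level. Levels run from Acot3 at FPKM 0.0956 in the knockout to Fabp1 at 3658, and Etfb stands far below the other mitochondrial genes in both libraries.

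Peroxisomal oxidation genes went in both directions. All 6 were evaluated, with a median log2 ratio of 0.04, and under the smaller rule 1 was higher, Crot, and 1 lower, Acaa1b. That is 16.7% each way, near the 12.5% higher and 15.6% lower of all evaluated genes. Crot, the peroxisomal carnitine octanoyltransferase that exports shortened chains to mitochondria, had 4593 reads in the knockout and 3078 in the control, at FPKM 69.1 and 45.4. Its ratio of 1.53 (1.47 to 1.61) was the highest of the peroxisomal class. Ehhadh, the bifunctional enzyme of the peroxisomal cycle and a classical PPARA target in mouse liver, had 3995 reads in the knockout and 4084 in the control, a ratio of 1.01 (0.963 to 1.05). Eci2, an isomerase for unsaturated chains, stood at 1.05 (0.985 to 1.12), and Decr2, the peroxisomal dienoyl-CoA reductase, at 0.866 (0.817 to 0.917).

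The peroxisomal thiolases are encoded by a pair of close copies on chromosome 9. Acaa1b had 6654 reads in the knockout and 9345 in the control, at FPKM 279 and 383, a ratio of 0.732 (0.710 to 0.756). Acaa1a had 2388 reads in the knockout and 2227 in the control, at FPKM 44.4 and 40.6, a ratio of 1.10 (1.04 to 1.17). The copies thus stood on opposite sides of 1, and Acaa1b was the more abundant in both libraries. Their coding sequences were 96.5% identical over 1275 aligned bases, and 30.5% of the 50-base words in Acaa1b transcripts also occur in Acaa1a transcripts. The start of both coding sequences, bases 1 to 90 in GENCODE M21, shows how little separates them, with capitals at the bases that differ.
Acaa1b: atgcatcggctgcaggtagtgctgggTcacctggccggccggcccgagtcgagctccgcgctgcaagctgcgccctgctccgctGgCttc
Acaa1a: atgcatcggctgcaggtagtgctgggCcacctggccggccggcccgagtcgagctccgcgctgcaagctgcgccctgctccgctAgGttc
Because the handling of reads that match both copies is not stated, the split between them is uncertain. The sum of both was 9042 reads in the knockout and 11572 in the control, a ratio of 0.804 (0.782 to 0.826).

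Acyl-CoA handling genes were the most spread of the classes. Of 12 genes 11 were evaluated, 1 was at least 2-fold lower (9.09%) and 0 at least 2-fold higher. Among all evaluated genes 1.11% were past that rule in the lower direction and 2.48% in the higher. Under the smaller rule 4 were higher (Acsl3, Cd36, Crat and Acsl4) and 3 lower (Acsl1, Acot4 and Acot1). These are 36.4% higher and 27.3% lower, against 12.5% and 15.6% of all evaluated genes. The median log2 ratio was 0.17, which is the value of Acot2, a gene of few reads, and the range was -1.06 to 0.91. The median was 0.08 with no filter or with 100 reads required.

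Acsl1 stood out among the long-chain acyl-CoA synthetases, the enzymes that activate fatty acids. In hepatocytes ACSL1 is the main synthetase that feeds oxidation and lipid synthesis, and its gene is a PPARA target. It had 7436 reads in the knockout and 15959 in the control, at FPKM 58.3 and 122. The ratio was 0.479 (0.466 to 0.493), and its log2 ratio ranked 87th from the lowest of the 9563 evaluated genes. It lies on mm10 chromosome 8 from 46471037 to 46536051, plus strand, and exons of Gm45244 on the opposite strand overlap 9.91% of its exonic bases. After a correction for gene length its log2 ratio was -0.94, short of 2-fold.

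The other synthetases were higher in the knockout library. Acsl3 had 200 reads in the knockout and 109 in the control, a ratio of 1.89 (1.49 to 2.41). Acsl4, which prefers arachidonic acid, had 1510 reads in the knockout and 1201 in the control, a ratio of 1.29 (1.20 to 1.40). Acsl5 had 2510 reads in the knockout and 2273 in the control, a ratio of 1.14 (1.07 to 1.20), within the smaller rule. Acsl1 was the most abundant of these synthetases in both libraries, with 45.7% of their summed FPKM in the knockout and 68.1% in the control. The summed level of all 4 was FPKM 127 in the knockout and 180 in the control. Coding identity between Acsl1 and the other synthetases ran from 50.2% to 63.6%, against 96.5% for the thiolase copies. Acsl3 and Acsl4 are also expressed outside hepatocytes. Bile duct markers are given above. Of 12 evaluated stellate and fibroblast markers, 3 (25%) exceeded 2-fold on the higher side, against 2.48% of all evaluated genes. Under the smaller rule 7 were higher and 1 lower, or 58.3% and 8.33%, against 12.5% and 15.6% of all evaluated genes. The stellate median log2 ratio was 0.42, with summed FPKM 99.01 in the knockout and 92.05 in the control. The part of bile duct, stellate and fibroblast cells in the Acsl3 and Acsl4 values was not tested.

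The acyl-CoA thioesterases split acyl-CoA back to free acid and coenzyme A. Their log2 ratio was below 0 in 3 of 4 evaluated genes, where 54% of all evaluated genes were below 0. Acot1, the cytosolic enzyme that PPARA agonists induce strongly in mouse liver, had 465 reads in the knockout and 665 in the control, a ratio of 0.719 (0.637 to 0.811). Acot4, a peroxisomal enzyme for dicarboxylic acyl-CoAs, had 237 reads in the knockout and 398 in the control, a ratio of 0.612 (0.519 to 0.721). Acot12, a cytosolic acetyl-CoA hydrolase, had 1833 reads in the knockout and 2347 in the control, and its ratio of 0.803 (0.755 to 0.854) lay just outside the smaller rule. Acot2, the mitochondrial enzyme, had 34 reads in the knockout and 31 in the control, too few to show a difference of this size. Acot3, with 4 reads in the knockout and 11 in the control, was below the expression minimum and is the gene of the 38 that was not evaluated.

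Acot1 to Acot4 lie in a cluster on chromosome 12, and their reads may be shared. The coding sequences of Acot1 and Acot2 were 95.5% identical, and those of Acot1 and Acot3 84% identical. Bases 31 to 120 of the Acot1 coding sequence and bases 154 to 243 of that of Acot2, from GENCODE M21, are shown with capitals where they differ.
Acot1: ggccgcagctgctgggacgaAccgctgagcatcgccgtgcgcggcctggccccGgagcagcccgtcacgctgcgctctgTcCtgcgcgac
Acot2: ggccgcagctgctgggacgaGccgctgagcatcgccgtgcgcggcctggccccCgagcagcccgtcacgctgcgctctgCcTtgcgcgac
Summed over the 4 clustered genes, there were 740 reads in the knockout and 1105 in the control, a ratio of 0.689 (0.627 to 0.757). Most of these reads belong to Acot1 and Acot4, and how reads shared with other genes were treated is not stated.

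Of the uptake, binding and carnitine exchange genes, Cd36 and Crat were higher and Fabp1 was level. Fabp1, the liver fatty acid binding protein, was the most abundant of the 38 genes, at FPKM 3658 in the knockout and 3740 in the control, a ratio of 0.986 (0.969 to 1.003). Cd36, the fatty acid translocase, had 847 reads in the knockout and 583 in the control, a ratio of 1.49 (1.34 to 1.66). Crat, carnitine acetyltransferase, had 243 reads in the knockout and 186 in the control, a ratio of 1.34 (1.11 to 1.64). Cd36 is also expressed by endothelial cells, macrophages and adipocytes. Of 11 evaluated sinusoidal endothelial markers 2 were lower and 0 higher under the smaller rule, with summed FPKM 108 in the knockout and 117 in the control. Of 12 evaluated macrophage markers 5 were lower and 2 higher, with summed FPKM 218 in the knockout and 225 in the control. The lower shares were 18.2% for endothelial and 41.7% for macrophage markers, against 15.6% of all evaluated genes. The higher share of macrophage markers was 16.7%, against 12.5%. Of 4 evaluated adipocyte markers 3 were higher and 1 lower, or 75% and 25%, against 12.5% and 15.6% of all evaluated genes. The lower one was Cidec, also listed below among further PPARA targets, at FPKM 2.57 in the knockout and 5.72 in the control. Lpl, the highest of the evaluated ones, was at FPKM 2.63 in the knockout and 0.952 in the control. With Cidec included, all 8 listed adipocyte markers summed to FPKM 10.1 in the knockout and 9.22 in the control. The defining genes Adipoq and Plin1 each had 6 reads in the knockout and 0 in the control. The part of these cells in the Cd36 value was not tested.

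The remaining PPARA targets showed no common direction. Vnn1, the pantetheinase gene used as a marker of PPARA activity in liver, had 358 reads in the knockout and 265 in the control, a ratio of 1.39 (1.18 to 1.63), past the smaller rule on the higher side. Pdk4, the kinase that shuts off pyruvate dehydrogenase in fasting, had 57 reads in the knockout and 46 in the control, and its interval of 0.849 to 1.92 holds 1. Creb3l3, which encodes a membrane-bound factor that works with PPARA in fasting, had 4235 reads in the knockout and 4771 in the control, a ratio of 0.913 (0.876 to 0.952). Vnn1 thus stood above 1 in the library in which Ppara was low.

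**Figure D3:**
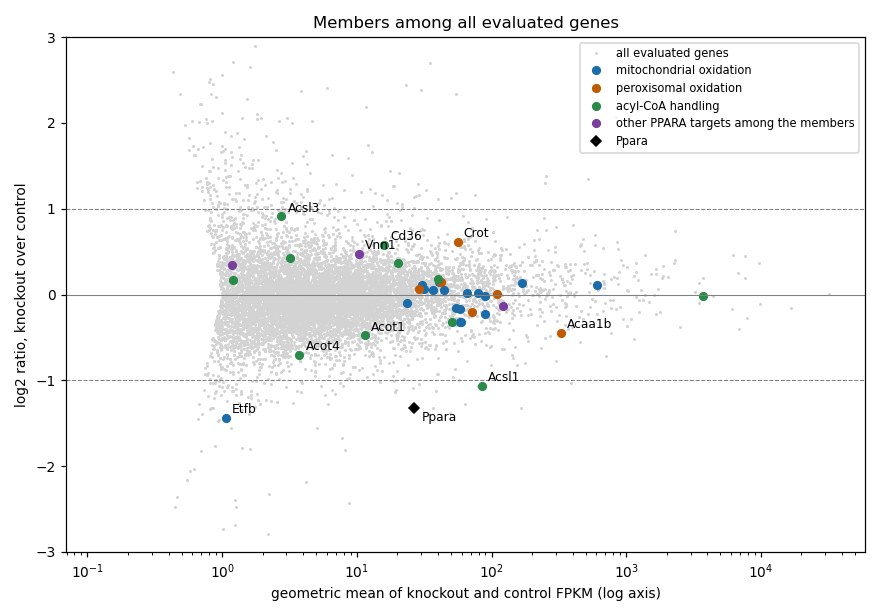
Log2 ratio of knockout over control against the geometric mean of knockout and control FPKM (log axis) for all evaluated genes in grey and for the evaluated genes of the group in colour, with dashed lines at 2-fold; 13 genes lie outside the plotted range. Acsl1 at -1.06 and Etfb at -1.44 lie past the lower dashed line, and Etfb is among the weakly counted genes.

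A search for elements of the PPARA type used a direct repeat of the hexamer AGGTCA with any 1 base (N) between the copies. Both strands were searched with at most 2 mismatches. RefSeq windows ran from 250 bases before to 50 bases after an annotated start (build GRCm38.p6), and some genes had more than 1 window. Windows were available for 34 of the 38 genes, and 6 of these (17.6%) held a match, against 4.4% of all 27025 genes with a window. With at most 1 mismatch the shares were 5.88% (Acot12 and Fabp1) and 0.644%. Several known PPARA elements lie outside such windows, and a match of letters is neither a bound site nor particular to PPARA. The 200 bases before the start are printed for the 4 acyl-CoA handling genes that held a match, with the match in capitals.
Fabp1 (chr6:71199679-71199878, plus strand): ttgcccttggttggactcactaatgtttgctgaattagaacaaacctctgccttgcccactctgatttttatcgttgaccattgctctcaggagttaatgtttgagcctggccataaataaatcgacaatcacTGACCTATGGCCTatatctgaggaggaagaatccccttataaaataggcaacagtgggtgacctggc
Acot12 (chr13:91741321-91741520, plus strand): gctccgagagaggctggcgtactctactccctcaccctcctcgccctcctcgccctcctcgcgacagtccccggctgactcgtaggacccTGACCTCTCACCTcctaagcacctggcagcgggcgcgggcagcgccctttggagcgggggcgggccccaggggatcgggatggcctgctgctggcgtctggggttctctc
Acot4 (chr12:84038179-84038378, plus strand): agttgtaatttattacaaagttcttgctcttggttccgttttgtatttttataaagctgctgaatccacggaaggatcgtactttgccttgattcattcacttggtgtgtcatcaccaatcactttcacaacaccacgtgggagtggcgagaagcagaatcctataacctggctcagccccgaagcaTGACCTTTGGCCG
Cd36 (chr5:17835897-17836096, minus strand): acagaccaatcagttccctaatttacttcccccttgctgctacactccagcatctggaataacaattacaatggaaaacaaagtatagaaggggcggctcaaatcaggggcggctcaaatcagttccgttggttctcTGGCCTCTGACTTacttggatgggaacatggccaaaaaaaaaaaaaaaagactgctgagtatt
The knockout over control ratio was 0.986 for Fabp1, 0.803 for Acot12, 0.612 for Acot4 and 1.49 for Cd36. Etfa and Creb3l3 held the other matches, at ratios of 1.10 and 0.913. The windows with the Cd36 and Creb3l3 matches are at starts that lie inside the gene.

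The list of Ppara and its partners, which holds corepressors beside coactivators, had a median below 0. Of 17 evaluated genes, 7 were lower and 1 higher under the smaller rule, and Ppara itself is among the 7. These are 41.2% lower and 5.88% higher, against 15.6% and 12.5% of all evaluated genes. The median log2 ratio was -0.25, against -0.03 over all evaluated genes. Lpin1, a phosphatidate phosphatase that also acts as a PPARA coactivator, had 13420 reads in the knockout and 23066 in the control, a ratio of 0.598 (0.586 to 0.611). Ppargc1b, a coactivator, stood at 0.667 (0.486 to 0.909), and Rxra, the main retinoid X receptor of liver and the partner of PPARA, at 0.839 (0.808 to 0.872). Pparg, the adipogenic relative of PPARA, was the higher one, with 137 reads in the knockout and 94 in the control.

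Oxidation genes outside the 38 included a few lower enzymes beside many near 1. Of 17 evaluated mitochondrial and ketogenic genes, 2 were lower and 1 higher under the smaller rule, with a median of -0.04. These shares of 11.8% and 5.88% were below the 15.6% and 12.5% of all evaluated genes. Mlycd, which removes the malonyl-CoA that blocks CPT1, had 716 reads in the knockout and 1160 in the control, and Acacb, which makes that malonyl-CoA at mitochondria, had 2054 in the knockout and 2856 in the control. Acad10, an acyl-CoA dehydrogenase family member, was the higher one at 1.65 (1.46 to 1.86).

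Of 14 evaluated further peroxisomal genes, 3 were lower and 0 higher under the smaller rule, with a median of -0.09. The lower share was 21.4%, against 15.6% of all evaluated genes. Pex11a, a PPARA-inducible gene of peroxisome division, had 1211 reads in the knockout and 1872 in the control, a ratio of 0.665 (0.618 to 0.716).

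Of 27 evaluated further PPARA targets, 8 were lower and 4 higher under the smaller rule, with a median of -0.17. The shares were 29.6% lower and 14.8% higher, against 15.6% and 12.5% of all evaluated genes. The 3 lowest were Fitm1, Cidec and G0s2. Fitm1 had 51 reads in the knockout and 169 in the control, Cidec had 58 in the knockout and 132 in the control, and G0s2, an inhibitor of triglyceride lipase, had 251 in the knockout and 431 in the control. On the higher side were Acnat2, an acyl-CoA amino acid transferase relative, with 88 reads in the knockout and 45 in the control, Cyp4a31 with 69 in the knockout and 41 in the control, and Txnip at a ratio of 1.37 (1.23 to 1.53). The fatty acid omega-hydroxylases Cyp4a10 and Cyp4a14, strongly PPARA-dependent in mouse, stood on opposite sides, at 1.26 (1.20 to 1.32) and 0.792 (0.734 to 0.854), and belong to a family of similar copies whose shared reads are uncertain. Fgf21, the fasting hormone induced by PPARA, had 4 reads in the knockout and 1 in the control, below the expression minimum.

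**Figure D4:**
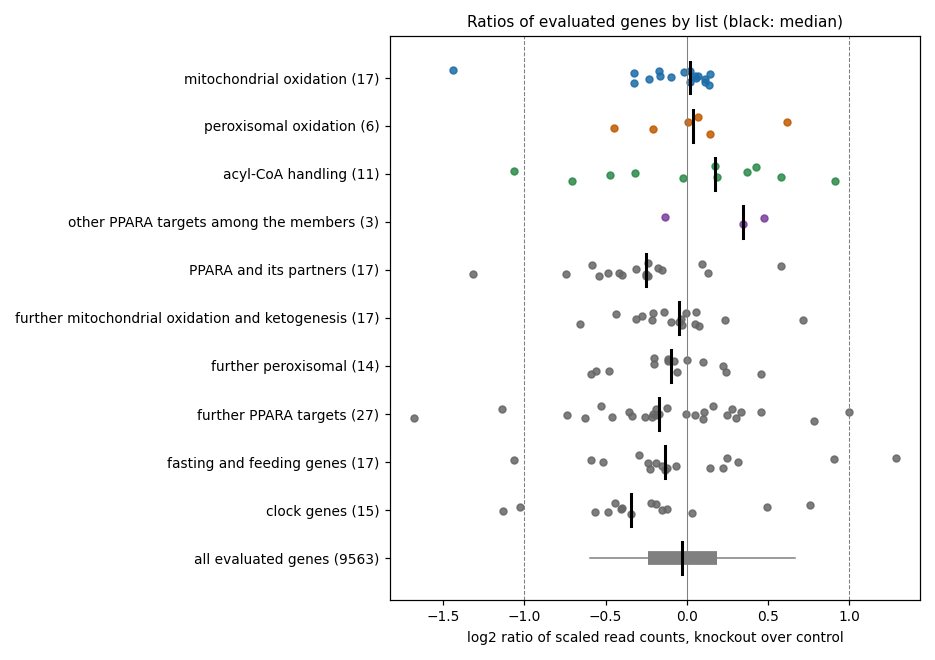
Log2 ratio of knockout over control for each evaluated gene, by list, with the number of genes in brackets and black bars at medians; the lowest row shows all evaluated genes, with the thick bar from the 25th to the 75th percentile and the thin line from the 5th to the 95th. Medians of the 38 genes' classes lie between 0.02 and 0.35, and those of the PPARA partner and clock lists at -0.25 and -0.34. Some genes are on more than 1 list.

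Ppara is also a gene of the daily rhythm and of the fed and fasted states, neither of which the labels give. Of 15 evaluated clock genes, 8 were lower and 2 higher under the smaller rule, with a median of -0.34. The shares were 53.3% lower and 13.3% higher, against 15.6% and 12.5% of all evaluated genes. Nfil3 had 128 reads in the knockout and 269 in the control, and Nr1d1 stood higher, with 510 in the knockout and 310 in the control. Of 17 evaluated fasting and feeding genes, 3 were lower and 2 higher, or 17.6% and 11.8%, near those all-gene shares. That list mixes genes induced by fasting with genes induced by feeding, so its pooled shares do not measure a feeding state. The 3 lower were Pklr, Elovl6 and Scd1, the 2 higher Igfbp1 and Irs2, and 12 stayed within the rule. The fasting-induced Igfbp1 had 823 reads in the knockout and 346 in the control, Irs2 had 208 in the knockout and 114 in the control, and Pklr, induced by feeding, had 2161 in the knockout and 4650 in the control. The part of collection time and feeding in the Ppara value was not tested.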

How the data were processed

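Mouse liver RNA was sequenced in 2 libraries, 1 per genotype. The authors deposited whole-number read counts and FPKM values per gene, per the file headers. The tools and builds named are Bowtie2 2.4.2 and mm10, per the submitters' processing notes. Not stated are the counting program, its annotation, the strand setting and how multiply matching reads were treated. The columns named WT and KO were taken as the control and knockout by the series title. Deposited FPKM was recomputed from counts, length and column totals and matched within a relative tolerance of 1e-06 for all 21936 genes in both libraries. All 38 genes had coordinates identical to GENCODE M21.

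Counts were scaled by library totals times TMM factors (0.996 for the knockout, 1.004 for the control; edgeR 4.0.16, R 4.3.3). Log2 ratios used scaled counts plus 0.5. Ratios had nothing added, with exact Clopper-Pearson 95% intervals (Python 3.11.15, scipy 1.17.1). The labels mention no molecular identifiers, so an interval covers counting error only. The size rules stand in place of a test, and the smaller one was read on the log2 ratios. All 38 genes may be named, and outside them genes past 1.5-fold and the 3 highest and 3 lowest of each list. Rxra, Cyp4a10, Cyp4a14, Fgf21, Alb, Adipoq and Plin1 fall outside this rule and were named after their values were seen. Members, lists and the smaller size rule were chosen with earlier results of these data known. Methylmalonyl-CoA mutase (listed by an older symbol), Tf and Trac were listed but are not analysed here. Some further genes of the lists enter the counts and are not reported here. Alternatives covered scaling (with DESeq2 1.42.0), FPKM, pseudocounts, filters, gene length, GC content and summed copies.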

Additional observations from a re-analysis of the deposited data

How the results depend on the processing

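Ppara stayed between -1.33 and -1.30 on the log2 scale under every alternative run. Members at least 2-fold higher numbered 0 and became 1, Acsl3, after the GC correction. Members at least 2-fold lower numbered 2 and became 1 with 100 reads required, which removes Etfb, and 1 with the length correction, which puts Acsl1 at -0.94; with no filter it was 3, adding Acot3. Members past the smaller rule on the higher side stayed at 6. Those on the lower side were 6, and between 5 and 9 elsewhere: column totals, DESeq2 size factors and deposited FPKM each gave 8, adding Cpt1a and Acot12, and the length correction gave 9. The mitochondrial median became -0.01 with the length correction, against 0.02, and the acyl-CoA handling median lay between 0.08 and 0.18. Among single members 23 values moved beyond their counting interval, under the length or GC correction. Of these, Acaa2, Acadvl, Hadhb (length) and Fabp1, Hadhb (GC) also changed sign, all close to 0. No paired analysis was possible because there is 1 library per genotype, and leaving out a library was not possible for the same reason. The depth leaves Acot2, Acot3, Etfb and Pdk4 with wide intervals.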
